A study of Mus musculus with 24 samples.

Results

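Transforming growth factor-beta (TGF-beta) and activin signalling was followed through 10 genes in adipose precursor cells with and without the transcription factor NFIA. They were the 5 ligand genes Tgfb1, Tgfb2, Tgfb3, Inhba and Inhbb, the 3 receptor genes Tgfbr1, Tgfbr2 and Tgfbr3, and the 2 inhibitor genes Fst and Smad7, all taken by symbol. They made up 10 of the 24825 genes listed, and all 10 passed the filter on low values that left 12640 genes for testing. Their levels per length ran from 1.40 FPKM (fragments per kilobase of gene per 1000000 counted fragments) for Inhba in the lowest library to 186 FPKM for Tgfbr3 in the highest.

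Ligands of the TGF-beta and activin branch are secreted dimers that bring type II and type I serine/threonine kinase receptors together on the cell surface. The type I receptor then phosphorylates SMAD2 and SMAD3, which enter the nucleus with SMAD4 and act on target genes. In fibroblasts and adipose precursors the branch is known for raising matrix genes and for holding back differentiation into adipocytes.

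Nfia flox/flox mice gave the cells, the stromal vascular fraction of inguinal fat, which is a mixed preparation and was made immortal with SV40 large T antigen. All 4 cell types carried the floxed gene and large T. They received an empty retroviral vector (ctrl), Cre recombinase to delete Nfia (Cre), Cre with full-length NFIA (Cre + NFIA), or Cre with NFIA lacking a segment of its C-terminal proline-rich domain (Cre + NFIA Δpro#3). Libraries were made before differentiation (day 0) and at day 7 of an adipocyte differentiation protocol that began at confluence with isobutylmethylxanthine, indomethacin, dexamethasone, insulin, T3 and rosiglitazone and went on with the last 3 agents alone. Each of the 8 groups had 3 libraries. No source used here says that they came from separate cultures, so p-values measure only the spread between these libraries. The age of the mice and the number of animals behind the preparation are not given in the sources used here.

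Library totals ran from 7.73 to 14.62 M counted reads (M, 1000000 reads), and the fewest reads behind a value of any of the 10 genes in a library were 34, for Tgfb1. The gene total of Nfia was 5.34 to 6.81 FPKM in the day 0 Cre libraries against 6.23 to 6.75 FPKM in ctrl. At day 0 it was 69.7 to 74.9 FPKM in Cre + NFIA and 59.7 to 61.7 in Cre + NFIA Δpro#3, without overlap. A gene total spans exons outside the deleted one and so did not check the deletion. Within these libraries every direction given for Cre rests on its label, and checks of the deletion made outside them are not reported here. The labelled cell type was checked against markers. At day 0, adipose precursor markers summed to 2014 to 2333 FPKM per library and adipocyte markers to 27.8 to 52.1 FPKM, while Dpp4 of the precursor list was under 1 FPKM everywhere. Of the lists for other cells, 3 of 5 endothelial, 3 of 6 macrophage and leukocyte, 4 of 5 myoblast and 3 of 5 pericyte markers were under 1 FPKM in all libraries, among them Pecam1, Cdh5, Ptprc, Pax7 and Rgs5, and Adgre1, Myod1 and Kcnj8 were at 0. The rest passed the filter: Kdr and Tek (endothelial), Csf1r, Cd68 and Cd14 (macrophage and leukocyte), Des (myoblast), Cspg4 and Myh11 (pericyte). At day 0 the macrophage and leukocyte sum reached 19.0 FPKM and the endothelial sum 10.2.

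Promoter sequence from RefSeq (GRCm38.p6) was used for 6 of the 10 genes, in 7 windows because Tgfbr1 had 2 start sites. No window of Smad7 is reported here. Windows of 250 bases before the start are shown for Inhbb and Tgfbr2, which were lower with NFIA on both days, and for Tgfb2 and Inhba, which were higher with NFIA at day 0 and lower at day 7. Capitals mark the NFI half-site TTGGC (or GCCAA on the other strand) and the SMAD element CAGAC (or GTCTG).
Inhbb, chr1:119422249-119422498, minus strand: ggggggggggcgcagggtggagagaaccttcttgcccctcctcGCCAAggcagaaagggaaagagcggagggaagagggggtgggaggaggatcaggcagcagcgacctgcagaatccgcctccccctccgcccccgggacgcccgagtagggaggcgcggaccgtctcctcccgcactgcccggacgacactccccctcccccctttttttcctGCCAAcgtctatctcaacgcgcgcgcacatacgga
Tgfbr2, chr9:116175364-116175613, minus strand: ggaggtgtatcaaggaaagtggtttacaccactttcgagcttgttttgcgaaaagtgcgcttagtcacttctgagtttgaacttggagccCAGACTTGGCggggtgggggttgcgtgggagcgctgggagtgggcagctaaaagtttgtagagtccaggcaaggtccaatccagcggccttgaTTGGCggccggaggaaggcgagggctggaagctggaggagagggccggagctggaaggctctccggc
Tgfb2, chr1:186705990-186706239, minus strand: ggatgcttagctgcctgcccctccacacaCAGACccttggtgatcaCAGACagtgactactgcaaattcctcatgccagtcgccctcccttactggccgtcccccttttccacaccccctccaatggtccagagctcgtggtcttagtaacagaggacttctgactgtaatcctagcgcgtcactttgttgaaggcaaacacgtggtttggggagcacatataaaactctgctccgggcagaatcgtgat
Inhba, chr13:16011601-16011850, plus strand: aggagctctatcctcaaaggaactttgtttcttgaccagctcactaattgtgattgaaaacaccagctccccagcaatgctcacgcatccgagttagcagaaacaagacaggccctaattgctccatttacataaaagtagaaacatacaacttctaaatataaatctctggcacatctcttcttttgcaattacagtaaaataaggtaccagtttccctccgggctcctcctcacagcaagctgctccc
The Inhbb window held 2 half-sites, with first bases 207 and 35 bases before the start, both on the reverse strand. The Tgfbr2 window held 2 half-sites, 155 and 67 bases before the start, and the first of them directly followed a SMAD element with no overlap. The Tgfb2 window held 2 SMAD elements and no half-site, and the Inhba window held neither. Both windows of Tgfbr1, not shown, also held a half-site, while the window of Tgfb1, not shown, held neither a half-site nor a SMAD element. The Cre + NFIA libraries overlapped Cre in range for both Tgfbr1 and Tgfb1 at day 0 and lay below Cre at day 7. Over the 7 windows, 4 held a half-site and 3 a SMAD element, where 41.5% and 42.2% of all 32841 promoter windows did. None held the full NFI site of both half-sites facing each other, found in 0.0365% of all windows, or the AP-1 site TGANTCA, found in 6.75%. A match of letters is a description and not evidence of binding.

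**Figure D1:**
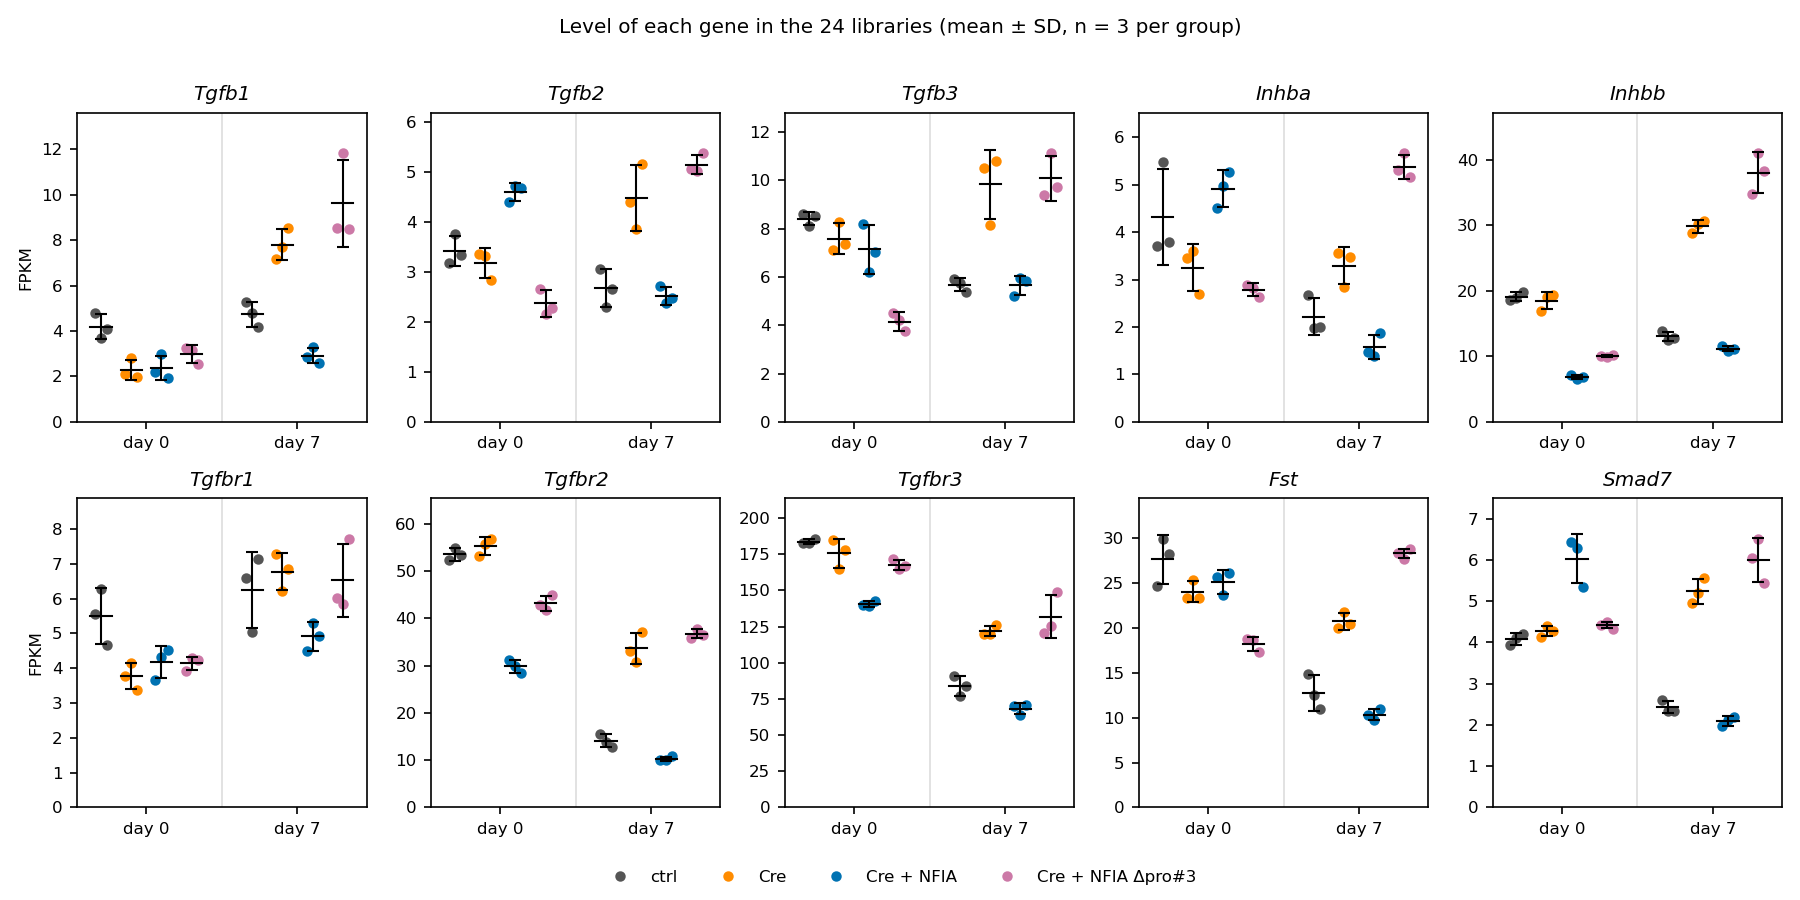
FPKM of each of the 10 genes (vertical axes, linear from 0, each panel its own scale) in the 4 cell types at day 0 and day 7; points are the 3 libraries of a group, and the black bar and whiskers are the mean ± SD. At day 7 the Cre and Cre + NFIA Δpro#3 libraries lie above the ctrl and Cre + NFIA libraries for 9 of the 10 genes, with Tgfbr1 as the exception.

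The first question was how Cre cells differed from ctrl before and during differentiation. At day 0, Cre libraries differed little from ctrl: 2 of the 10 genes were lower, Tgfb1 and Tgfbr1, beside 3.33% of all genes tested that passed in either direction, 1.63% higher and 1.70% lower (quantile normalization gave 0.973% and 1.63%, size factors taken as medians of ratios 1.09% and 1.72%). A gene passed when its adjusted p, from limma on log2(FPKM + 1) with Benjamini-Hochberg adjustment over all 12640 genes, was under 0.05. Neither Tgfb1 nor Tgfbr1 passed in Cre + NFIA against Cre at day 0 (log2 difference 0.03, adjusted p = 0.909 and 0.12, adjusted p = 0.439). Both were below ctrl in Cre + NFIA too (-0.63, adjusted p = 0.00534 and -0.32, adjusted p = 0.0344). Ctrl alone lacked Cre, so for these 2 genes loss of Nfia cannot be told apart from Cre itself. At day 7, 9 of the 10 were higher in Cre than in ctrl and none lower, beside 58.8% of all genes that passed and 36.1% that were higher, with a median log2 difference of 0.64 over the 10 genes and 0.09 over all genes. With median-of-ratios size factors the share of all genes that were higher was 26.9% and that of lower genes 31.2% (22.7% as deposited), the median of all genes moved by -0.11 on the log2 scale, and the median of the 10 genes above it was 0.54 (0.55 as deposited). By the test between days, the signed Cre against ctrl difference was higher at day 7 than at day 0 for all 10 genes. Beside them, 49.2% of all genes passed that test, 29.7% upwards and 19.5% downwards. Of those that passed, 60.3% lay upwards (46.3% after scaling by size factors). The difference was not larger in size at day 7 for every gene: the log2 difference was -0.66 and then 0.62 for Tgfb1, and -0.44 and then 0.11 for Tgfbr1.

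The second question was what introducing full-length NFIA did. The gene total of Nfia was 69.7 to 74.9 FPKM in Cre + NFIA and 6.23 to 6.75 in ctrl at day 0. At day 7 the totals were 83.9 to 97.1 and 9.15 to 9.81 FPKM, so Nfia RNA lay above the ctrl level. At day 0 the Cre + NFIA libraries were higher than Cre for 3 genes (Inhba, Tgfb2 and Smad7) and lower for 3 (Inhbb, Tgfbr2 and Tgfbr3), beside 27.6% of all genes that passed, 14.7% higher and 12.9% lower. At day 7 all 10 genes were lower than in Cre, beside 63.0% of all genes that passed and 35.9% that were lower, and the medians were -0.89 over the 10 genes and -0.06 over all genes. Size factors again moved the split of all genes, to 33.7% higher and 29.1% lower from 27.0% and 35.9%, and left the 10 genes 0.82 below the median of all genes (0.83 as deposited). Against ctrl, Cre + NFIA cells at day 7 were lower for 4 genes (Tgfb1, Tgfbr2, Tgfbr3 and Inhbb) and higher for none, beside 18.0% of all genes that passed, 8.81% higher and 9.15% lower. At day 0 they were higher than ctrl for 2 genes (Smad7 and Tgfb2) and lower for 5 (Inhbb, Tgfbr2, Tgfb1, Tgfbr3 and Tgfbr1), beside 33.1% of all genes that passed, 18.8% higher and 14.3% lower. The comparisons with Cre share the same Cre libraries, so they are given side by side and not as independent results.

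The third question was what the Δpro#3 form did. The gene total of Nfia in the mutant was 59.7 to 61.7 FPKM at day 0 and 95.0 to 111 at day 7. With full-length NFIA it was 69.7 to 74.9 and 83.9 to 97.1. At day 0 the 2 forms thus differed in RNA level as well as in the deletion, and the part of the level was not tested. At day 0 the mutant was lower than Cre for 5 genes (Inhbb, Tgfb3, Fst, Tgfbr2 and Tgfb2) and higher for none, beside 18.3% of all genes that passed, 9.26% higher and 9.02% lower. At day 7 it was higher than Cre for 3 genes (Inhba, Fst and Inhbb) and lower for none, beside 17.7% of all genes that passed, 7.70% higher and 10.0% lower. Set against full-length NFIA at day 7, the mutant was higher for all 10 genes, beside 69.2% of all genes that passed, 40.4% higher and 28.9% lower, and Tgfbr2 and Inhbb were past 3-fold on the log2(FPKM + 1) scale, beside 2.33% of all genes. Median-of-ratios size factors moved the median of all genes by -0.10 and the share of upward genes among those that passed from 58.3% to 48.5%, and 9 of the 10 genes then passed, without Tgfbr1 (adjusted p = 0.0847). At day 0 it was higher than full-length NFIA for 3 genes (Inhbb, Tgfbr2 and Tgfbr3) and lower for 5 (Tgfb2, Tgfb3, Inhba, Fst and Smad7), beside 10.1% of all genes that passed, 4.50% higher and 5.59% lower.

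**Figure D2:**
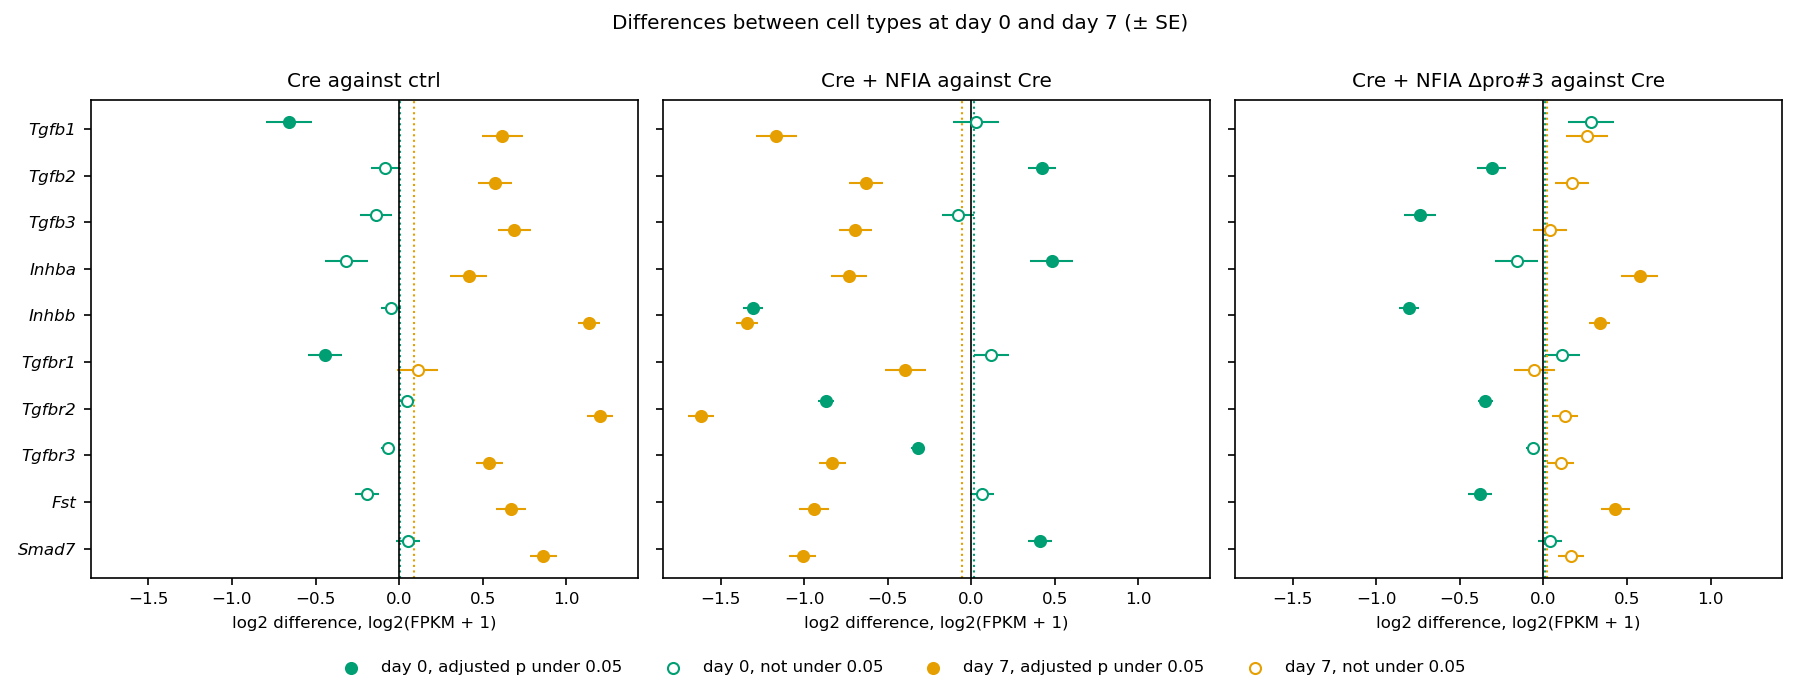
Log2 difference on the log2(FPKM + 1) scale (horizontal axis, ± SE) of each gene for 3 comparisons, at day 0 (green) and day 7 (orange); filled symbols passed at an adjusted p under 0.05 and dotted lines are the median of all genes tested on that day. At day 7 the points of Cre against ctrl lie to the right of 0 and those of Cre + NFIA against Cre to the left, from -1.62 for Tgfbr2 to -0.39 for Tgfbr1, whereas at day 0 the signs are mixed.

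Markers of the 2 differentiation states moved with the day 7 results. The adipocyte list (Pparg, Cebpa, Fabp4, Adipoq, Plin1, Cidec, Lipe and Cfd) summed to 20259 to 23836 FPKM per library in ctrl, 3871 to 8589 in Cre, 18822 to 19006 in Cre + NFIA and 654 to 1806 in Cre + NFIA Δpro#3 at day 7. All 8 markers were lower in Cre than in ctrl, higher in Cre + NFIA than in Cre and lower in the mutant than in Cre. The precursor list summed to 460 to 501, 1034 to 1162, 482 to 551 and 1193 to 1430 FPKM in the same order. Of its tested markers, 5 of 5 were higher in Cre than in ctrl, beside 36.1% of all genes. In Cre + NFIA, 5 of 5 were lower than in Cre, beside 35.9%. Between Cre + NFIA and ctrl, 0 of 8 adipocyte markers passed, beside 18.0% of all genes. Of the precursor markers, 3 of 5 were lower in Cre + NFIA, beside 9.15% of all genes. The precursor sum was not lower: its median was 503 FPKM in Cre + NFIA and 484 in ctrl, with overlapping ranges. Endothelial sums were 1.55 to 2.04 FPKM in ctrl and 4.47 to 5.03 in the mutant, and macrophage and leukocyte sums 5.04 to 6.07 and 10.0 to 11.3. Pericyte and smooth muscle sums were 3.63 to 4.36 FPKM in ctrl, 1.25 to 1.52 in Cre and 3.22 to 3.29 in Cre + NFIA, and skeletal myoblast sums were 0.559 to 1.71 FPKM over the day 7 libraries. Some marker sums also differed between cell types at day 0. The adipocyte sum was 51.3 to 52.1 FPKM in Cre + NFIA and 35.4 to 45.7 in the mutant against 27.8 to 34.0 in Cre, and the endothelial sum was 8.90 to 10.2 in Cre + NFIA and 5.09 to 5.57 in the mutant against 5.60 to 6.62 in Cre. The macrophage and leukocyte sum was 16.5 to 19.0 FPKM in the mutant and 11.5 to 14.1 in Cre + NFIA against 9.68 to 11.7 in Cre. Pericyte and smooth muscle sums were 0.513 to 0.712 FPKM in Cre + NFIA and 0.421 to 0.636 in the mutant against 0.857 to 1.16 in Cre, and myoblast sums stayed under 0.5 FPKM in all day 0 libraries. The part of any of these in the results was not tested, and in bulk RNA fewer cells of a type cannot be told apart from less RNA per cell.

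Among the ligands, Tgfb1 encodes the founding TGF-beta, stored in the matrix in a latent form (NCBIM37 chromosome 7, 26472021 to 26490096, plus strand). At day 0, Tgfb1 was at 4.77, 3.69 and 4.11 FPKM in the ctrl libraries, 2.13, 2.79 and 1.96 in Cre, 2.20, 2.97 and 1.93 in Cre + NFIA and 3.25, 3.18 and 2.56 in Cre + NFIA Δpro#3. All ctrl libraries lay above all libraries of the other 3 cell types, and Cre was lower than ctrl (log2 difference -0.66 ± 0.14, adjusted p = 0.0313). That call did not hold with any ctrl library left out (adjusted p = 0.0861, 0.0506 and 0.0651 without replicates 1, 2 and 3), nor without Cre replicate 1 (0.0623) or 3 (0.0995). At day 7, Tgfb1 was at 5.28, 4.77 and 4.17 FPKM in the ctrl libraries, 7.17, 7.69 and 8.53 in Cre, 2.88, 3.28 and 2.61 in Cre + NFIA and 8.55, 11.8 and 8.48 in Cre + NFIA Δpro#3. Cre libraries now lay above ctrl (1.64-fold by means, log2 difference 0.62 ± 0.12, adjusted p = 0.00106), so the sign of the difference was opposite on the 2 days. With full-length NFIA, Tgfb1 was 2.67-fold below Cre (log2 difference -1.17 ± 0.12, adjusted p = 5.96e-06) and also below ctrl (-0.55 ± 0.12, adjusted p = 0.0104). The Δpro#3 libraries overlapped Cre in range and the difference missed the threshold (log2 difference 0.26 ± 0.12, adjusted p = 0.179).

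Tgfb2 encodes TGF-beta2, the isoform that depends most on the co-receptor betaglycan for binding (NCBIM37 chromosome 1, 188447065 to 188529871, minus strand). At day 0, Tgfb2 was at 3.19, 3.77 and 3.34 FPKM in the ctrl libraries, 3.37, 3.33 and 2.84 in Cre, 4.40, 4.73 and 4.68 in Cre + NFIA and 2.67, 2.16 and 2.29 in Cre + NFIA Δpro#3. The Cre + NFIA libraries were the highest and the mutant libraries the lowest, without overlap with Cre, and the log2 difference of Cre + NFIA from Cre was 0.42 ± 0.09, adjusted p = 0.00378. The lower mutant level (log2 difference -0.31 ± 0.09, adjusted p = 0.0285 against Cre) lost its call without Cre replicate 1 (0.0809) or 2 (0.0854) and without mutant replicate 2 (0.106) or 3 (0.09). At day 7, Tgfb2 was at 3.07, 2.31 and 2.67 FPKM in the ctrl libraries, 4.41, 3.87 and 5.17 in Cre, 2.72, 2.38 and 2.47 in Cre + NFIA and 5.06, 5.02 and 5.38 in Cre + NFIA Δpro#3. The order had turned: NFIA libraries lay below Cre (log2 difference -0.63 ± 0.10, adjusted p = 0.000173) and overlapped ctrl, whereas the mutant overlapped Cre.

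Tgfb3 encodes TGF-beta3 (NCBIM37 chromosome 12, 87397694 to 87419991, minus strand). At day 0, Tgfb3 was at 8.59, 8.11 and 8.53 FPKM in the ctrl libraries, 7.09, 8.29 and 7.36 in Cre, 8.18, 6.20 and 7.03 in Cre + NFIA and 4.50, 4.21 and 3.75 in Cre + NFIA Δpro#3. The mutant libraries alone stood apart, 1.83-fold below Cre by means (log2 difference -0.74 ± 0.10, adjusted p = 0.000582), while full-length NFIA overlapped Cre (log2 difference -0.08 ± 0.10, adjusted p = 0.573). At day 7, Tgfb3 was at 5.89, 5.74 and 5.38 FPKM in the ctrl libraries, 10.5, 8.17 and 10.8 in Cre, 5.21, 5.95 and 5.82 in Cre + NFIA and 9.37, 11.1 and 9.73 in Cre + NFIA Δpro#3. Cre and the mutant overlapped each other at the higher levels, and Cre was above ctrl by 0.69 ± 0.10, adjusted p = 9.44e-05 and above Cre + NFIA, whose difference from Cre was -0.69 ± 0.10, adjusted p = 6.94e-05, on the log2 scale.

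Inhba encodes the beta A subunit that forms activin A, an activin made by adipose precursors (NCBIM37 chromosome 13, 16103684 to 16119044, plus strand). At day 0, Inhba was at 3.70, 5.49 and 3.79 FPKM in the ctrl libraries, 3.46, 3.61 and 2.69 in Cre, 4.50, 4.98 and 5.27 in Cre + NFIA and 2.89, 2.83 and 2.64 in Cre + NFIA Δpro#3. Cre + NFIA libraries lay above Cre (log2 difference 0.48 ± 0.13, adjusted p = 0.0178), a call that missed the threshold without Cre replicate 3 (0.065) and without Cre + NFIA replicate 2 (0.0533) or 3 (0.0639). At day 7, Inhba was at 2.67, 1.99 and 2.01 FPKM in the ctrl libraries, 3.56, 2.84 and 3.48 in Cre, 1.48, 1.40 and 1.88 in Cre + NFIA and 5.31, 5.66 and 5.17 in Cre + NFIA Δpro#3. NFIA libraries were now the lowest of all 8 groups, 2.08-fold below Cre (log2 difference -0.73 ± 0.11, adjusted p = 9.63e-05), and mutant libraries the highest of that day, 1.63-fold above Cre (log2 difference 0.57 ± 0.11, adjusted p = 0.00401). No library of Cre overlapped either group.

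Inhbb encodes the beta B subunit of activin B, known as an abundant activin transcript of adipocytes (NCBIM37 chromosome 1, 121312042 to 121318825, minus strand). At day 0, Inhbb was at 18.6, 18.9 and 19.9 FPKM in the ctrl libraries, 17.0, 19.0 and 19.4 in Cre, 7.16, 6.47 and 6.90 in Cre + NFIA and 10.1, 9.96 and 10.3 in Cre + NFIA Δpro#3. Cre did not differ from ctrl beyond the spread (log2 difference -0.05 ± 0.06, adjusted p = 0.662), while Inhbb was lower with NFIA by 2.69-fold (-1.31 ± 0.06, adjusted p = 2.04e-07) and with the mutant by 1.82-fold (-0.81 ± 0.06, adjusted p = 1.93e-05). The mutant libraries stood between Cre and full-length NFIA without overlap, 0.50 ± 0.06 above the latter on the log2 scale (adjusted p = 0.000296). At day 7, Inhbb was at 13.8, 12.5 and 12.7 FPKM in the ctrl libraries, 28.7, 30.2 and 30.6 in Cre, 11.6, 10.8 and 11.1 in Cre + NFIA and 34.8, 41.0 and 38.2 in Cre + NFIA Δpro#3. Cre lay 2.29-fold above ctrl (log2 difference 1.14 ± 0.06, adjusted p = 2.88e-07) and NFIA 2.67-fold below Cre (-1.34 ± 0.06, adjusted p = 1.8e-08), while the mutant lay above Cre (0.34 ± 0.06, adjusted p = 0.00412). Against Cre, the mutant level of Inhbb was thus lower at day 0 and higher at day 7, and the test of that difference gave 1.14 ± 0.09, adjusted p = 1.56e-07. For full-length NFIA the difference between days was -0.03 ± 0.09, adjusted p = 0.785, and Inhbb was the 1 gene of 10 that did not pass that test. Of the 8 group means only ctrl and Cre at day 0, ranks 3 and 4, had ranges that overlapped their neighbour in the order. The difference between Cre + NFIA and ctrl at day 7 was small (-0.20 ± 0.06, adjusted p = 0.0474) and was lost under 12 of 17 alternatives, each left-out library included, with adjusted p up to 0.154 without ctrl replicate 1.

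Of the receptors, Tgfbr1 encodes the type I kinase ALK5 (NCBIM37 chromosome 4, 47366094 to 47427803, plus strand). It varied least, 1.80-fold between the highest and lowest group means, against 5.55-fold for Inhbb. At day 0, Tgfbr1 was at 5.55, 6.28 and 4.68 FPKM in the ctrl libraries, 3.77, 4.14 and 3.39 in Cre, 3.68, 4.33 and 4.54 in Cre + NFIA and 3.93, 4.28 and 4.23 in Cre + NFIA Δpro#3. Ctrl libraries lay above the other 3 cell types, and the Cre against ctrl difference (-0.44 ± 0.10, adjusted p = 0.0474) was lost under 9 of 17 alternatives, with adjusted p up to 0.233, among them each left-out library but ctrl replicate 3 (0.103 and 0.125 without ctrl replicates 1 and 2, and 0.0706, 0.0679 and 0.137 without Cre replicates 1, 2 and 3). At day 7, Tgfbr1 was at 6.58, 5.03 and 7.13 FPKM in the ctrl libraries, 7.28, 6.22 and 6.84 in Cre, 4.50, 5.31 and 4.94 in Cre + NFIA and 6.02, 5.83 and 7.72 in Cre + NFIA Δpro#3. Ctrl, Cre and mutant libraries overlapped, and the log2 difference of Cre from ctrl was 0.11 ± 0.12, adjusted p = 0.457. The lower level in Cre + NFIA (-0.39 ± 0.12, adjusted p = 0.0142 against Cre) was the smallest of the 10 in size and missed the threshold without Cre replicate 1 (0.0541) or Cre + NFIA replicate 1 (0.0555). Its higher level in the mutant than in Cre + NFIA (0.34 ± 0.12, adjusted p = 0.0268) was lost under 5 of 17 alternatives, with adjusted p up to 0.118.

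Tgfbr2 encodes the type II kinase that binds the TGF-beta ligands (NCBIM37 chromosome 9, 115993415 to 116084383, minus strand), and of the 10 genes it had the largest day 7 log2 differences of Cre from ctrl, of Cre + NFIA from Cre and of the mutant from Cre + NFIA. At day 0, Tgfbr2 was at 52.3, 55.0 and 53.4 FPKM in the ctrl libraries, 53.2, 55.8 and 56.8 in Cre, 31.1, 30.0 and 28.4 in Cre + NFIA and 42.9, 41.8 and 45.0 in Cre + NFIA Δpro#3. Ctrl and Cre overlapped (log2 difference 0.04 ± 0.05, adjusted p = 0.613), NFIA libraries lay 1.85-fold below Cre (-0.87 ± 0.05, adjusted p = 5.44e-07) and mutant libraries between them (-0.35 ± 0.05, adjusted p = 0.000633 against Cre). At day 7, Tgfbr2 was at 15.5, 13.8 and 12.9 FPKM in the ctrl libraries, 33.2, 30.7 and 37.1 in Cre, 10.0, 9.99 and 10.8 in Cre + NFIA and 35.9, 37.7 and 36.6 in Cre + NFIA Δpro#3. Cre was 2.39-fold above ctrl (log2 difference 1.20 ± 0.08, adjusted p = 5.54e-07) and NFIA 3.28-fold below Cre (-1.62 ± 0.08, adjusted p = 1.81e-08), past 3-fold on the tested scale, as were 1.50% of all genes downwards. The mutant overlapped Cre (0.13 ± 0.08, adjusted p = 0.305) and lay 3.58-fold above full-length NFIA. NFIA libraries were also below ctrl (-0.42 ± 0.08, adjusted p = 0.00359).

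Tgfbr3 encodes betaglycan, a co-receptor that presents TGF-beta2 and also binds inhibin (NCBIM37 chromosome 5, 107535589 to 107718648, minus strand). It was the highest of the 10 genes per length in every group. At day 0, Tgfbr3 was at 183, 183 and 186 FPKM in the ctrl libraries, 185, 165 and 178 in Cre, 140.2, 139 and 143 in Cre + NFIA and 172, 165 and 167 in Cre + NFIA Δpro#3. NFIA libraries lay below all others (log2 difference from Cre -0.32 ± 0.04, adjusted p = 0.000276) and the mutant overlapped Cre. At day 7, Tgfbr3 was at 90.6, 76.9 and 84.2 FPKM in the ctrl libraries, 120.0, 120.2 and 126 in Cre, 70.4, 63.8 and 70.6 in Cre + NFIA and 121, 126 and 149 in Cre + NFIA Δpro#3. Cre was above ctrl (0.54 ± 0.08, adjusted p = 0.000139) and NFIA below Cre (-0.83 ± 0.08, adjusted p = 3.21e-06), and the mutant again overlapped Cre (0.10 ± 0.08, adjusted p = 0.44). The lower level of NFIA libraries than ctrl (-0.29 ± 0.08, adjusted p = 0.0291) was lost without ctrl replicate 1 (0.109) or 3 (0.0708) and without Cre + NFIA replicate 1, 2 or 3 (0.0567, 0.114 and 0.0536).

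Of the inhibitors, Fst encodes follistatin, a secreted protein that binds activins and keeps them from their receptors (NCBIM37 chromosome 13, 115242470 to 115249159, minus strand). At day 0, Fst was at 24.7, 29.9 and 28.3 FPKM in the ctrl libraries, 23.3, 25.4 and 23.4 in Cre, 25.6, 23.6 and 26.1 in Cre + NFIA and 18.7, 18.6 and 17.3 in Cre + NFIA Δpro#3. Only the mutant stood apart from Cre, 1.32-fold lower by means (log2 difference -0.38 ± 0.07, adjusted p = 0.00471). At day 7, Fst was at 14.9, 12.5 and 10.9 FPKM in the ctrl libraries, 20.0, 21.8 and 20.5 in Cre, 10.3, 9.73 and 11.0 in Cre + NFIA and 28.4, 27.7 and 28.8 in Cre + NFIA Δpro#3. Cre lay above ctrl (0.67 ± 0.09, adjusted p = 5.26e-05), NFIA 2.01-fold below Cre (-0.94 ± 0.09, adjusted p = 2.32e-06) and the mutant above Cre (0.43 ± 0.09, adjusted p = 0.00647). Like Inhbb, Fst was lower than Cre in the mutant at day 0 and higher at day 7, with a difference between days of 0.81 ± 0.12, adjusted p = 0.000105. At day 7 the mutant libraries were above all other libraries for Inhba, Inhbb and Fst.

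Smad7 encodes the inhibitory SMAD that targets the type I receptor for degradation and is itself a known early target of the pathway. At day 0, Smad7 was at 3.93, 4.12 and 4.22 FPKM in the ctrl libraries, 4.14, 4.40 and 4.28 in Cre, 6.44, 6.30 and 5.36 in Cre + NFIA and 4.42, 4.49 and 4.34 in Cre + NFIA Δpro#3. NFIA libraries lay above all others, 1.41-fold above Cre (log2 difference 0.41 ± 0.07, adjusted p = 0.00152), while the mutant overlapped Cre (0.04 ± 0.07, adjusted p = 0.764). At day 7, Smad7 was at 2.60, 2.34 and 2.35 FPKM in the ctrl libraries, 4.96, 5.19 and 5.57 in Cre, 1.98, 2.11 and 2.20 in Cre + NFIA and 6.06, 6.52 and 5.45 in Cre + NFIA Δpro#3. NFIA libraries were then the lowest, 2.497-fold below Cre (-1.01 ± 0.08, adjusted p = 5.25e-07), and ctrl lay 2.16-fold below Cre (log2 difference of Cre from ctrl 0.86 ± 0.08, adjusted p = 3.45e-06). The change of sign between days, -1.42 ± 0.10, adjusted p = 8.87e-10, was the largest of the 10 genes for Cre + NFIA against Cre. Inhba (-1.21 ± 0.17, adjusted p = 5.88e-06) and Tgfb2 (-1.06 ± 0.13, adjusted p = 1.41e-06) changed sign the same way, and 9 of the 10 genes had a lower difference at day 7 than at day 0, beside 48.9% of all genes that passed and 30.1% downwards, against 18.8% upwards, so that 38.5% of those that passed lay upwards (52.0% after scaling by size factors). For the mutant against Cre, 6 of the 10 genes had a higher difference at day 7 than at day 0 and none a lower one, beside 18.2% of all genes that passed, 7.79% upwards and 10.4% downwards (10.2% and 8.90% with quantile normalization).

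The last question was how the genes changed over differentiation in each cell type. From day 0 to day 7, 8 of the 10 fell in ctrl and none rose, beside 71.0% of all genes that passed and 38.1% that fell. In Cre, 6 rose and 3 fell, beside 51.7% that passed, 30.0% up and 21.6% down (22.7% and 29.8% with quantile normalization). With quantile normalization 7 of the 10 passed in Cre, without the rises of Tgfb3 (adjusted p = 0.0706) and Smad7 (0.455). In Cre + NFIA, 7 fell and 1 rose, Inhbb, beside 70.1% that passed, 31.8% up and 38.3% down. In Cre + NFIA Δpro#3, 8 rose and 2 fell, beside 41.5% that passed, 24.5% up and 17.0% down (19.1% and 20.7% with quantile normalization).

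Tgfbr2 and Tgfbr3 fell in all 4 cell types, by different amounts: the log2 change of Tgfbr2 was -1.86 ± 0.07 in ctrl, -0.70 ± 0.07 in Cre, -1.45 ± 0.07 in Cre + NFIA and -0.23 ± 0.07 in the mutant, with adjusted p of 0.00822 or less. Tgfb1 rose 3.40-fold in Cre (log2 change 1.42 ± 0.13, adjusted p = 1.94e-08) and 3.21-fold in the mutant (1.40 ± 0.13, adjusted p = 4.21e-08), and its changes in ctrl (0.15 ± 0.13, adjusted p = 0.34) and Cre + NFIA (0.23 ± 0.13, adjusted p = 0.137) missed the threshold. The steepest rise was that of Inhbb in the mutant, 3.76-fold (log2 change 1.81 ± 0.06, adjusted p = 8.48e-15), and past 3-fold on the tested scale, as were 1.14% of all genes. Inhbb also rose in Cre (0.67 ± 0.06, adjusted p = 1.3e-08) and Cre + NFIA (0.63 ± 0.06, adjusted p = 8.63e-09) and fell in ctrl (-0.52 ± 0.06, adjusted p = 1.68e-07). Fst fell in ctrl (-1.06 ± 0.08) and Cre + NFIA (-1.20 ± 0.08) and rose in the mutant (0.61 ± 0.08, adjusted p = 5.02e-06). Its change in Cre (-0.20 ± 0.08, adjusted p = 0.0484) was lost under 9 of 16 alternatives, with adjusted p up to 0.161, among them Cre replicate 1, 2 or 3 of day 0 left out (0.0598, 0.161 and 0.063) and replicate 1 or 3 of day 7 (0.139 and 0.103). The small rise of Smad7 in Cre (0.24 ± 0.07, adjusted p = 0.00784) was lost with quantile normalization (adjusted p = 0.455), which moved the median of all genes in that comparison by -0.10. Inhba fell in ctrl (-0.71 ± 0.12) and Cre + NFIA (-1.20 ± 0.12), rose in the mutant (0.75 ± 0.12) and in Cre had a log2 change of 0.02 ± 0.12, adjusted p = 0.924.

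**Figure D3:**
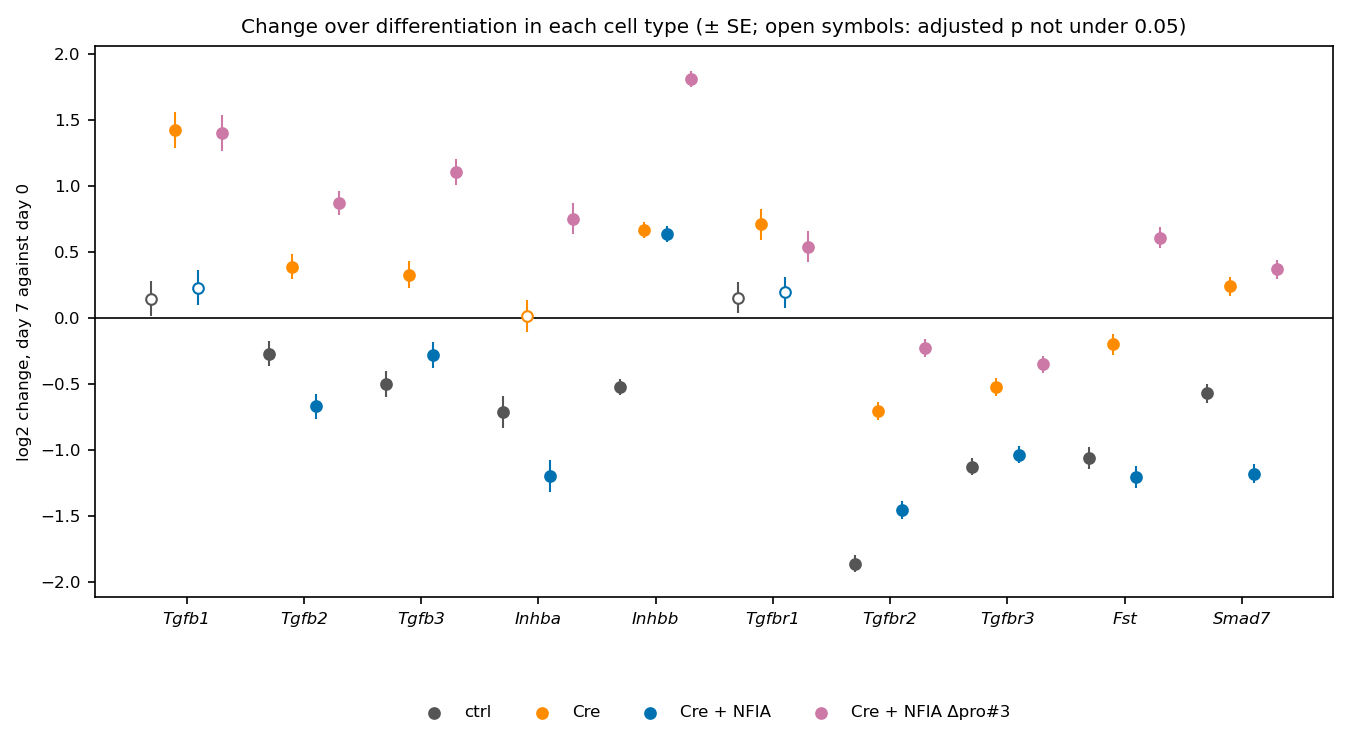
Log2 change from day 0 to day 7 on the log2(FPKM + 1) scale (vertical axis, ± SE) of each gene in the 4 cell types; filled symbols passed at an adjusted p under 0.05. For all 10 genes the ctrl point lies below the Cre and mutant points with no overlap of the SE bars, from -1.86 for Tgfbr2 in ctrl to 1.81 for Inhbb in the mutant.

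The rest of the pathway was read from 62 further genes in 6 lists, of which 48 were tested. At day 7, 34 of the 48 were higher and 3 lower in Cre than in ctrl, beside 36.1% and 22.7% of all genes. The median log2 difference was 0.59. In Cre + NFIA, 33 were lower and 7 higher than in Cre, beside 35.9% and 27.0%, with a median of -0.88. In the mutant, 14 were higher and 2 lower than in Cre, beside 7.70% and 10.0% (median 0.18). At day 0, 3 of the 48 were higher and 5 lower in Cre than in ctrl, beside 1.63% and 1.70%. In Cre + NFIA at day 0, 12 were higher and 22 lower than in Cre, beside 14.7% and 12.9%. In the mutant at day 0, 6 were higher and 11 lower than in Cre, beside 9.26% and 9.02%.

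Of the proteins that store and release latent TGF-beta, 8 of 8 tested genes were higher in Cre than in ctrl at day 7, beside 36.1% of all genes, and 8 of 8 were lower in Cre + NFIA than in Cre, beside 35.9%. Lrrc32, which encodes the docking protein GARP, was at 22.2 ± 2.27 FPKM (SD, n = 3) in ctrl, 59.6 ± 5.35 in Cre, 12.5 ± 0.720 in Cre + NFIA and 85.3 ± 3.03 in the mutant at day 7. Its log2 difference between Cre + NFIA and Cre was -2.16 ± 0.08, adjusted p = 3.7e-09. Thbs1, an activator of the latent complex, was at 287 ± 37.2 FPKM in Cre and 77.1 ± 3.04 in Cre + NFIA (-1.87 ± 0.11, adjusted p = 8.02e-08). It was lower with NFIA at day 0 as well (-1.09 ± 0.04, adjusted p = 7.21e-08), as was Lrrc32 (-0.78 ± 0.08, adjusted p = 6.61e-05), while Ltbp1, a latent TGF-beta binding protein, was higher with NFIA at day 0 (0.21 ± 0.05, adjusted p = 0.0104) and lower at day 7 (-1.37 ± 0.10, adjusted p = 3.97e-07). Ltbp2 did likewise (0.46 ± 0.10, adjusted p = 0.00725 and -0.90 ± 0.10, adjusted p = 8.38e-06).

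Of 6 tested receptors and co-receptors outside the 10 genes, 2 were higher and none lower in Cre + NFIA than in Cre at day 7, beside 27.0% of all genes that were higher and 35.9% that were lower. Acvr1c, which encodes ALK7, an activin-type receptor known from adipocytes, was at 8.40 ± 0.289 FPKM (SD, n = 3) in ctrl, 2.34 ± 0.495 in Cre, 9.31 ± 0.438 in Cre + NFIA and 0.478 ± 0.284 in the mutant, and below 0.1 FPKM at day 0. The order of the 4 means at day 7 was the reverse of that of Inhbb and of all others of the 10 genes but Tgfbr1. Log2 differences of Acvr1c were -1.51 ± 0.14, adjusted p = 4.12e-06 for Cre against ctrl, 1.64 ± 0.14, adjusted p = 1.12e-06 for Cre + NFIA against Cre and -1.18 ± 0.14, adjusted p = 0.000443 for the mutant against Cre. The type I receptor Acvr1b ran from 5.69 ± 0.429 in ctrl to 7.25 ± 0.158 FPKM in the mutant at day 7, and the type II receptor Acvr2a from 3.49 ± 0.0277 in Cre + NFIA to 4.35 ± 0.523 FPKM in Cre, with a log2 difference between Cre + NFIA and Cre of -0.25 ± 0.10, adjusted p = 0.0526. Acvr2b stayed below 1 FPKM and was not tested. Eng, the co-receptor endoglin, rose with NFIA at day 0 (1.42 ± 0.11, adjusted p = 4.84e-06) and was higher in Cre than ctrl (0.96 ± 0.11, adjusted p = 1.51e-05) and in the mutant than Cre (0.70 ± 0.11, adjusted p = 0.00135) at day 7. Cd109, a co-receptor known to restrain TGF-beta signalling, was higher with NFIA on both days (1.13 ± 0.13, adjusted p = 0.000129 and 0.61 ± 0.08, adjusted p = 3.47e-05).

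Among other antagonists, Fstl3, a relative of follistatin, was at 8.16 ± 0.759 FPKM in Cre and 2.13 ± 0.161 in Cre + NFIA at day 7 (log2 difference -1.55 ± 0.10, adjusted p = 1.65e-07) and was lower with NFIA at day 0 too (-0.72 ± 0.13, adjusted p = 0.00216). Dcn, which encodes the matrix proteoglycan decorin, was lower in Cre than ctrl on both days (-1.68 ± 0.14, adjusted p = 0.000216 at day 0 and -0.81 ± 0.11, adjusted p = 7.03e-05 at day 7), where 9 of the 10 genes were higher at day 7. Bambi, a pseudoreceptor, was not tested because too few libraries reached 1 FPKM.

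Of 12 SMADs and regulators, 5 were higher and 1 lower in Cre than in ctrl at day 7, near the 36.1% of all genes that were higher, and 7 were lower and 2 higher in Cre + NFIA than in Cre, beside 35.9% and 27.0% of all genes. Smad3, the receptor-activated SMAD of the branch, was at 11.8 ± 0.552 FPKM in ctrl, 19.3 ± 1.31 in Cre, 10.3 ± 0.366 in Cre + NFIA and 26.1 ± 0.278 in the mutant, and it was lower with NFIA on both days (log2 difference -0.51 ± 0.05, adjusted p = 1.79e-05 at day 0 and -0.84 ± 0.06, adjusted p = 2.01e-07 at day 7). Tgif2, a corepressor of SMADs, was lower with NFIA on both days (-1.17 ± 0.11, adjusted p = 3.12e-05 and -0.99 ± 0.11, adjusted p = 1.22e-05). Skil, another corepressor and a known target, was higher with NFIA at day 0 (0.63 ± 0.09, adjusted p = 0.000504) and had a log2 difference of 0.12 ± 0.11, adjusted p = 0.385 at day 7. Pmepa1, a negative regulator induced by the pathway, was lower with NFIA at day 0 (-0.45 ± 0.12, adjusted p = 0.0182) and at day 7 had -0.16 ± 0.09, adjusted p = 0.138.

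Of 16 genes known to be induced by TGF-beta, 13 were higher and none lower in Cre than in ctrl at day 7, beside 36.1% and 22.7% of all genes, and 13 were lower and 3 higher in Cre + NFIA than in Cre, beside 35.9% and 27.0%. Ctgf, a matricellular protein, was lower with NFIA on both days (-0.76 ± 0.09, adjusted p = 8.91e-05 and -1.89 ± 0.10, adjusted p = 3.13e-08), as was the matrix protein gene Tgfbi (-1.06 ± 0.10, adjusted p = 2.12e-05 and -1.17 ± 0.13, adjusted p = 1.05e-05) and the collagen cross-linking enzyme gene Lox (-0.50 ± 0.08, adjusted p = 0.000934 and -1.82 ± 0.12, adjusted p = 1.13e-07). Fn1, encoding fibronectin, and the transcription factor gene Junb were higher with NFIA at day 0 (0.65 ± 0.06, adjusted p = 2.18e-05 and 0.88 ± 0.24, adjusted p = 0.0202) and lower at day 7 (-1.01 ± 0.12, adjusted p = 2.09e-05 and -1.11 ± 0.13, adjusted p = 1.11e-05), the course of Smad7, Inhba and Tgfb2. The smooth muscle gene Tagln was lower in Cre than ctrl at day 0 (-0.72 ± 0.10, adjusted p = 0.00364), and at day 7 it was lower with NFIA (-0.90 ± 0.12, adjusted p = 4.1e-05) and higher with the mutant (0.52 ± 0.12, adjusted p = 0.0119) than in Cre. The 3 listed genes that were higher with NFIA than in Cre at day 7 were Tsc22d1, the cell cycle inhibitor gene Cdkn1a and Bhlhe40 (log2 difference 0.52 ± 0.11, adjusted p = 0.00127).

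**Figure D4:**
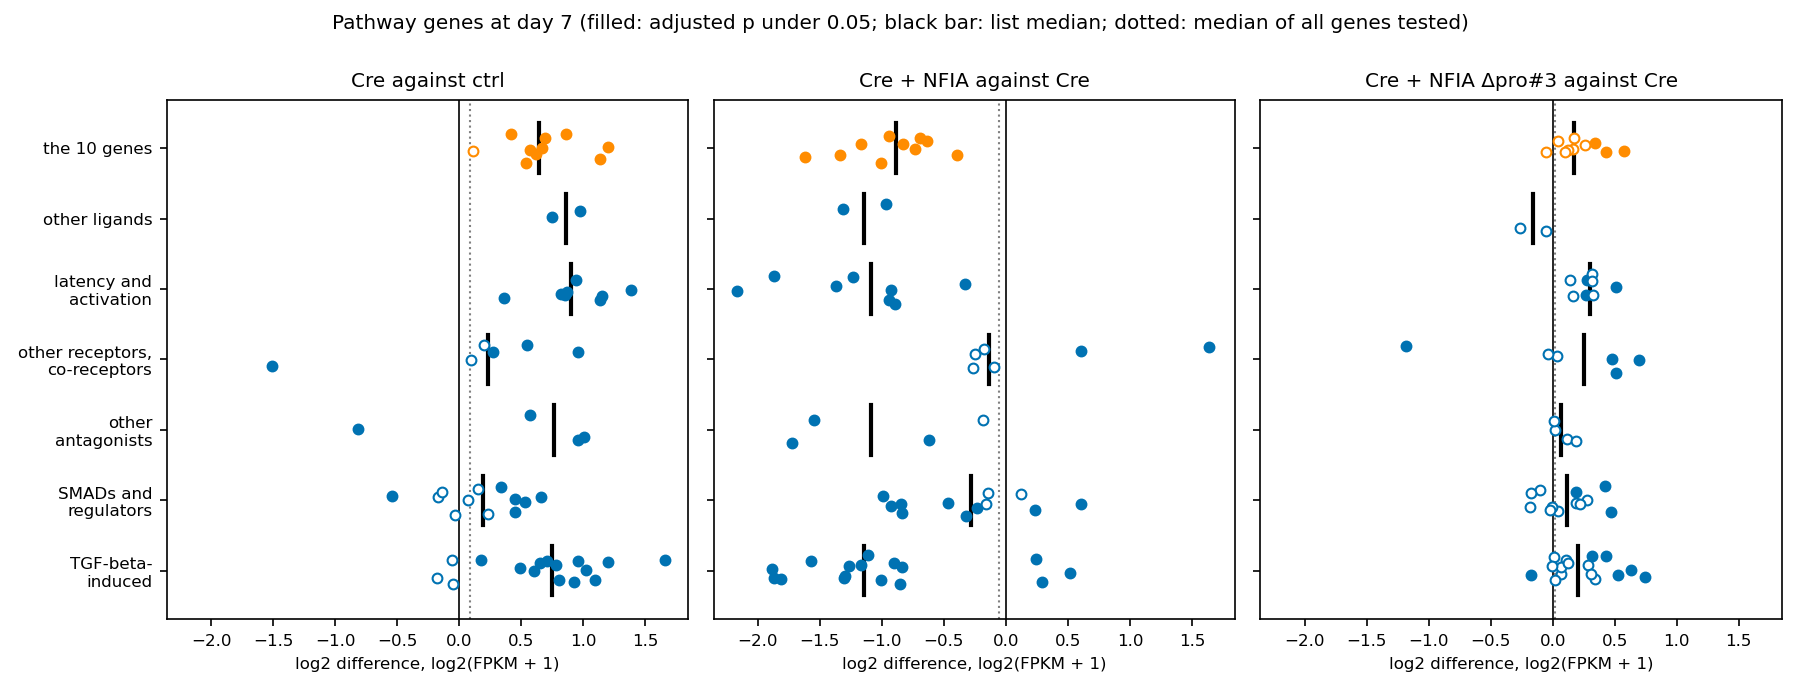
Log2 difference at day 7 on the log2(FPKM + 1) scale (horizontal axis) of the 10 genes (orange) and of the 48 tested genes of the 6 other lists (blue), 1 point a gene, in 3 comparisons; filled points passed at an adjusted p under 0.05, black bars are list medians and the dotted line is the median of all genes. The 8 latency genes lie to the right of 0 in Cre against ctrl and to the left in Cre + NFIA against Cre, and the point of Acvr1c lies farthest the other way (-1.51 and 1.64).

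The genes whose pattern over the 24 libraries was most like each of the 10 were taken by Pearson correlation of log2(FPKM + 1), as a description over libraries that share cells and depth. Col5a2, a fibrillar collagen gene, was most like Tgfbr2 (r = 0.990), Filip1l most like Tgfbr3 (0.990), Xxylt1 most like Smad7 (0.970), Cpxm1 most like Inhbb (0.967), Lpar1 most like Fst (0.965), Efemp1 most like Tgfb1 (0.938), Atp2b1 most like Inhba (0.931), Mast4 most like Tgfb3 (0.911), Ptprg most like Tgfb2 (0.909) and Wasl most like Tgfbr1 (0.886). For Inhba, Fst came second of all genes tested (r = 0.921). Among the 10 genes themselves the closest pair was Tgfbr2 and Tgfbr3 (r = 0.969) and the most unlike pair Tgfbr1 and Tgfbr3 (r = -0.311).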

How the data were processed

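RNA was measured in 24 libraries, 3 for each of 4 cell types at day 0 and day 7. The authors aligned stranded poly(A) reads to mm9 with STAR 2.5.3a, kept uniquely mapped reads, counted them per gene on the matching strand and deposited FPKM, the count divided by gene length and library total. All deposited FPKM values above 0 came out as whole reads (100% within 0.02 reads), which gave totals of 7.73 to 14.62 M (M, 1000000 reads). Reads of near-identical genes are lost by the unique-read filter, and a total fixed per library lets a few abundant genes move all others.

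Groups were taken from the labels. Genes with at least 1 FPKM in at least 3 libraries (12640 of 24825) were tested on log2(FPKM + 1) in R 4.3.3 by limma 3.58.1, its prior variance following the mean level, and adjusted after Benjamini and Hochberg over all of them. The added 1 understates the change of low genes. Comparisons within a day used its 12 libraries, and changes over time and tests between days used all 24. Replicate pairs differed by more than sampling noise (chi-square per degree of freedom 2.22 to 16.51 over 24 pairs, where noise gives 1). The fit was also run on simulated data that had the same dispersion for all genes and few changed genes. Many more genes passed in the day 7 comparisons, so the simulation does not show how the fit behaves there.

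All 10 genes were named, with fixed pathway genes, up to 2 higher and 2 lower list genes with the largest change per comparison of Cre with ctrl or of either NFIA form with Cre, and the genes most like each of the 10; Bhlhe40 lies outside that rule and was named after its value was seen. A fixed pathway gene is not reported here. The genes and lists were chosen with earlier results of these data known. Alternatives were another pseudocount, no filter, other scalings, other samples in the model, a replicate block, no trend, each library left out, and voom on the recovered reads.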

Additional observations from a re-analysis of the deposited data

Results flagged for a closer look

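The difference between cell types was itself compared between days, in limma over all 24 libraries with Benjamini-Hochberg adjustment over all genes tested, and 25 such results passed. Each value below is the log2 difference at day 7 minus that at day 0, ± SE, on the log2(FPKM + 1) scale. The comparisons share the Cre libraries and are not independent of each other.

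For Cre against ctrl all 10 genes passed and were shifted upwards at day 7, by 1.28 ± 0.19 for Tgfb1, 0.66 ± 0.13 for Tgfb2, 0.83 ± 0.14 for Tgfb3, 0.73 ± 0.17 for Inhba, 1.19 ± 0.09 for Inhbb, 0.55 ± 0.16 for Tgfbr1, 1.16 ± 0.09 for Tgfbr2, 0.60 ± 0.09 for Tgfbr3, 0.86 ± 0.12 for Fst and 0.81 ± 0.10 for Smad7, with adjusted p of 0.00836 or less. For Cre + NFIA against Cre, 9 genes passed and were shifted downwards, by -1.19 ± 0.19 for Tgfb1, -1.06 ± 0.13 for Tgfb2, -0.61 ± 0.14 for Tgfb3, -1.21 ± 0.17 for Inhba, -0.51 ± 0.16 for Tgfbr1, -0.75 ± 0.09 for Tgfbr2, -0.51 ± 0.09 for Tgfbr3, -1.003 ± 0.12 for Fst and -1.42 ± 0.10 for Smad7, with adjusted p of 0.0134 or less. For Cre + NFIA Δpro#3 against Cre, 6 genes passed and were shifted upwards, by 0.48 ± 0.13 for Tgfb2, 0.77 ± 0.14 for Tgfb3, 0.74 ± 0.17 for Inhba, 1.14 ± 0.09 for Inhbb, 0.48 ± 0.09 for Tgfbr2 and 0.81 ± 0.12 for Fst, with adjusted p of 0.0144 or less. Adipocyte and precursor marker sums differed between the same groups at day 7, and their part in these results was not tested.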

How the results depend on the processing

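No direction of a called value reversed under any alternative run, and 109 of 124 calls on the 10 genes held under every one, while 15 were lost under at least 1, 14 of them with 1 library left out. The count of genes called at day 0 for Cre against ctrl, 2, was 1 with a pseudocount of 0.1, 0 with no filter, 0 with only the groups compared in the model, 1 with the replicate block, and 0 to 1 with a library left out. The count at day 7 for Cre + NFIA against ctrl, 4, was 2 with no filter, 7 with voom on recovered reads and size factors, and 2 to 4 with a library left out. The cause was not tested. Calls lost with 1 library left out and not given with their gene were Tgfbr1 in Cre + NFIA against ctrl at day 0 without ctrl day 0 replicate 1 (0.0829), ctrl day 0 replicate 2 (0.111), Cre + NFIA day 0 replicate 1 (0.127), Cre + NFIA day 0 replicate 2 (0.0619), Tgfbr1 in the mutant against Cre + NFIA at day 7 without Cre + NFIA day 7 replicate 1 (0.0925), Cre + NFIA day 7 replicate 3 (0.057), Cre + NFIA Δpro#3 day 7 replicate 3 (0.118), Tgfb2 over time in ctrl without ctrl day 0 replicate 2 (0.0698), ctrl day 7 replicate 2 (0.092), Tgfb3 over time in Cre without Cre day 7 replicate 3 (0.0517), Tgfb3 over time in Cre + NFIA without Cre + NFIA day 0 replicate 1 (0.107), Cre + NFIA day 7 replicate 1 (0.0697) and the change of Tgfb2 between days in the mutant against Cre without Cre day 7 replicate 2 (0.0529), each with its adjusted p. Calls gained with 1 library left out were Fst in Cre + NFIA against ctrl at day 0 without ctrl day 0 replicate 1 (0.037), Inhba in Cre + NFIA against ctrl at day 0 without ctrl day 0 replicate 2 (0.043), Tgfb3 in Cre + NFIA against ctrl at day 0 without Cre + NFIA day 0 replicate 1 (0.0347), Tgfbr1 in Cre + NFIA against ctrl at day 7 without ctrl day 7 replicate 2 (0.0349), Fst in Cre + NFIA against ctrl at day 7 without ctrl day 7 replicate 3 (0.0108), Inhba in Cre + NFIA against ctrl at day 7 without Cre + NFIA day 7 replicate 3 (0.0495), Tgfbr1 over time in ctrl without ctrl day 7 replicate 2 (0.0405) and Tgfb1 over time in Cre + NFIA without Cre + NFIA day 0 replicate 2 (0.0329). Other settings gained 11: in Cre + NFIA against ctrl at day 7, Fst with size factors (0.039), quantile normalization (0.0473), all 24 libraries in the model (0.0237) and voom with size factors (0.0348), Inhba with quantile normalization (0.0436) and voom with size factors (0.0256) or library totals (0.0339), and Tgfbr1 with voom and size factors (0.0331), and Tgfbr1 over time in ctrl with voom and size factors (0.0287) and in Cre + NFIA with size factors (0.036) and with voom and size factors (0.0269).

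Replicate numbers are shared between groups, but in no comparison did every same-numbered pair deviate together (mean correlation -0.159 to 0.056), so they were not treated as pairs. The replicate block lost 3 calls, Tgfbr1 in Cre against ctrl at day 0 (adjusted p = 0.0532), Inhbb in Cre + NFIA against ctrl at day 7 (0.0708) and Fst over time in Cre (0.0619), and changed no other call. The voom fits were chosen after seeing the data. The planned edgeR and DESeq2 fits on recovered reads were not run.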
